A study of Mus musculus with 2 samples.

Results

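The retinoic acid receptors Rara, Rarb and Rarg, the rexinoid receptors Rxra, Rxrb and Rxrg, and the nuclear corepressor gene Ncor1 were examined in mouse granulocyte-monocyte progenitors. They were chosen by symbol, with earlier results of these data known. The members make up 7 of 43346 annotated genes, or 7 of 21461 nuclear protein-coding genes that carry a symbol. Total RNA was sequenced from these primary cells, marrow precursors of neutrophils and monocytes, taken from adult male mice of strain C57BL/6J at 5 to 6 weeks of age. The single group held 2 libraries, labelled biological replicates 1 and 2, each from 100 ng of rRNA-depleted RNA, with size ranges of 200 to 712 and 200 to 1000 for which no unit was given. No treatment or genetic change was named. Both replicates are tied to 1 donor record, so each SD given below covers these libraries only, and part of it may be technical.

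Retinoic acid receptors (RARs) bind DNA as heterodimers with rexinoid receptors (RXRs), usually at pairs of half-sites in direct repeat. Without ligand the heterodimer holds a corepressor complex built on NCoR1 or its relative and containing the deacetylase HDAC3. All-trans retinoic acid releases that complex and brings in coactivators. In the myeloid lineage, retinoic acid is known to promote granulocyte maturation, and fusions of the human RARA gene cause acute promyelocytic leukaemia. RXRs also pair with the thyroid hormone, vitamin D, liver X and peroxisome proliferator-activated receptors.

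Start sites are shown first, because Rara and Rarg each have more than 1 annotated start and the reads were not shared evenly among their transcripts. The sequences are from RefSeq on GRCm38.p6, the assembly also called mm10, and are printed 5′ to 3′ on the strand of the gene. For Rarb, 30 bases around chr14:16575506-16575535 on the minus strand are given, with the direct repeat in capitals.
Rarb direct repeat: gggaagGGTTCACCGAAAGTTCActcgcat
For Rarg and Rara, the 100 bases just before a start are given, with every CpG in capitals. The inner Rarg start, that of the transcript given all Rarg reads, follows chr15:102246501-102246600 on the minus strand. The outer one, of a transcript given no reads, follows chr15:102257523-102257622 on the minus strand. Which start the reads themselves came from was not tested.
Rarg inner start: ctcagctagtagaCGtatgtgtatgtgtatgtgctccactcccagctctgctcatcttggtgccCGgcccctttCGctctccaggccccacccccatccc
Rarg outer start: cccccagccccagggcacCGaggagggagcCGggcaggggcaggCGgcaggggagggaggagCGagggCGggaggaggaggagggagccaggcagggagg
For Rara, the start of the leading transcript follows chr11:98939611-98939710 on the plus strand, and a start about which no reads were placed follows chr11:98937596-98937695 on the same strand.
Rara leading start: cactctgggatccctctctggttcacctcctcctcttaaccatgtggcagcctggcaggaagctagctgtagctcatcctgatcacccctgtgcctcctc
Rara start without reads: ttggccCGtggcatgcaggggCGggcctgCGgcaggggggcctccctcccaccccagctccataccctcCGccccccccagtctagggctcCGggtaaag

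The upstream 100 bases of the inner Rarg start held 3 CpG and 60% G or C, and those of the outer start held 5 CpG and 79%. Those of the leading Rara start held 0 CpG and 58% G or C, against 5 CpG and 74% at the Rara start without reads. Rara-202, the other Rara transcript with reads, begins at base 98960412, a start that was not among the RefSeq windows, so its upstream bases were not examined. Direct repeats of the half-site NGNTCA, where N is any base, were searched on both strands of 32544 RefSeq windows. Each window ran from 250 bases before to 50 after a start. The N that opens the first half-site is left out of the patterns below. The N that opens the second follows the spacer and is not counted in it. A spacer of 5 bases (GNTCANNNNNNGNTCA), known as DR5, was found in 272 windows, or 0.836%. Among the 15 windows of the members it was found in 1, that of Rarb. The Rarb element, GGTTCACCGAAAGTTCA, lies 53 to 37 bases before the RefSeq start, at chr14:16575513-16575529. By the GENCODE annotation it lies inside the first exon of Rarb-201, from 14 to 30 bases past that transcript's first base. Repeats with a spacer of 2 (GNTCANNNGNTCA, 1.13% of windows, 366 in all) or 1 (GNTCANNGNTCA, 1.23%, 401 in all) were in 0 of the 15. The 3 motifs share the half-site and differ in the spacer alone. A match describes these letters and says nothing of a receptor bound there.

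Ncor1 and Rxrb stood far above the other members, Rara, Rarg and Rxra were low, and Rarb and Rxrg were at or near 0. Levels are given as TPM, each transcript's share of all transcripts in a library after correction for its length, which sums to the same total over every feature of each deposited table. At 1 TPM or more in both libraries were 2 of 7 members, where 40.8% of protein-coding genes (8764 of 21461) reached that level. Nuclear protein-coding genes held 19.07% (replicate 1) and 22.84% (replicate 2) of the TPM. With TPM rescaled so that these protein-coding genes alone make up the whole total, multiplying by 5.24 and 4.38, 4 of 7 members reached 1 in both libraries, against 47.8% of protein-coding genes. Replicate 1 held 49473848 and replicate 2 held 44260902 expected counts. A count of 0 allows up to 3 counts, and the limits and 95% exact Poisson intervals below cover counting error only.

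**Figure D1:**
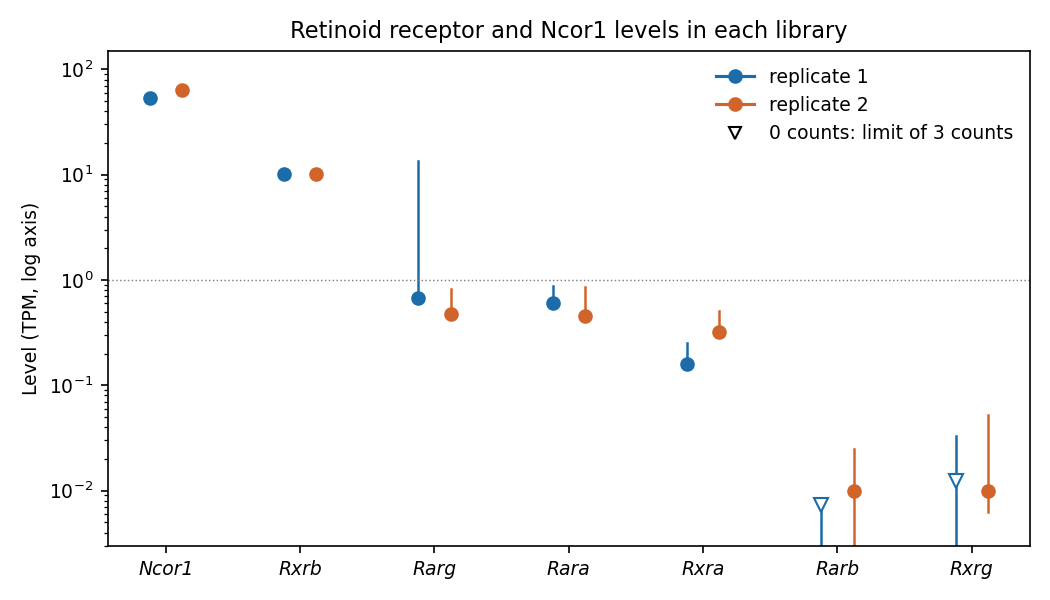
Level of each member in TPM (log axis) in replicate 1 (blue) and replicate 2 (orange). Points are deposited TPM, lines the deposited credibility interval, open triangles the limit that 3 counts allow where a library had 0 counts, and the dotted line marks 1 TPM. Ncor1 (53.42 and 62.92 TPM) and Rxrb (10.09 and 10.22 TPM) lie above 1 TPM in both libraries and the other 5 below it.

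The cells carried the markers of their label. All 8 progenitor markers were at 1 TPM or more in both libraries, led by the granule enzyme gene Mpo at 2552 and 2288 TPM, with the transcription factor gene Cebpa lowest at 8.80 and 7.35 TPM. Of markers of other cells, 0 of 4 B cell, 0 of 4 T and NK cell, 0 of 4 erythroid and 0 of 3 stem cell genes reached 1 TPM in both. The B cell genes Cd79a, Pax5 and Ms4a1 and the T cell genes Cd3e and Cd3g were at 0 counts in both. Mature neutrophil genes reached it in 4 of 5 cases, with list medians of 2.08 and 2.43 TPM and a sum of 14.9 and 20.1 TPM. Of 5 stroma and endothelium genes 1 reached it, Pecam1, which leukocytes also express, and of 3 megakaryocyte genes 1 did, Itga2b. The part of such cells in the levels below was not tested, and in bulk RNA fewer cells expressing a gene cannot be told apart from less RNA per cell.

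Among the ligand-binding RARs, Rara (ENSMUSG00000037992.12, chr11:98927818-98974942, plus strand) encodes the RAR found in most tissues. Rara stood at 0.61 TPM in replicate 1, from 266 counts (95% interval 235 to 300), and at 0.45 TPM in replicate 2, from 147 counts (124 to 173). Its mean was 0.53 ± 0.113 TPM (SD, n = 2), and it lay above 55.2% and 53.1% of protein-coding genes. Rarg (ENSMUSG00000001288.10, chr15:102234938-102257517, minus strand), known for its part in maintaining haematopoietic stem cells, stood at 0.67 and 0.47 TPM from 245 and 131 counts. The Rarg mean was 0.57 ± 0.141 TPM (SD, n = 2). The Rarg point lay above the Rara point in each library, by 1.10-fold and 1.04-fold, and replicate 1 was the higher library for both genes. The counting intervals of their counts overlapped in each library, 215 to 278 and 110 to 155 for Rarg, so no order of the pair can be read. The deposited credibility interval of Rarg in replicate 1 ran from 0.651 to 13.6 TPM, and it takes in Rarg-206, a transcript of 111 nt with 0 counts and an upper bound of 12.8 TPM of its own. On deposited posterior means Rarg stood at 5.05 and 0.61 TPM.

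Rarb (ENSMUSG00000017491.8, chr14:16430839-16819156, minus strand) is the RAR gene known to be induced by retinoic acid itself, through the repeat printed above. Rarb had 0 counts in replicate 1, which allows up to 0.00729 TPM, and 3 counts or 0.01 TPM in replicate 2. Those 3 counts equal the limit, which is 0.00952 TPM there, so expression of Rarb was not detectable at this depth. Top2b, on the opposite strand, overlaps the Rarb locus and held 20350 and 20404 counts, and whether counting used strand is not stated.

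Of the RXRs, Rxrb (ENSMUSG00000039656.12, chr17:34031812-34038399, plus strand) supplied nearly all of the transcripts. Rxrb stood at 10.09 and 10.22 TPM, from 2349 and 2039 counts, with a mean of 10.16 ± 0.0919 TPM (SD, n = 2). It lay above 85.4% and 83.3% of protein-coding genes. On rescaled TPM the libraries were further apart, at 52.9 and 44.8, so the small SD does not hold on that scale. On deposited posterior means they were again close, at 10.09 and 10.31 TPM. The Rxrb start lies 130 nt from that of Slc39a7 on the opposite strand, a zinc transporter gene with 5584 and 4946 counts.

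Rxra (ENSMUSG00000015846.10, chr2:27676440-27762957, plus strand), the RXR with most described functions in myeloid cells, stood at 0.16 TPM from 107 counts in replicate 1. In replicate 2 it stood at 0.32 TPM from 169 counts, and the counting intervals of 87.7 to 129 and 144 to 196 counts did not overlap before any scaling for depth. Replicate 2 was the higher library, the reverse of Rara and Rarg, and the mean was 0.24 ± 0.113 TPM (SD, n = 2). Rxrg (ENSMUSG00000015843.6, chr1:167598384-167639623, plus strand), which is known mainly from muscle and brain, had 0 counts and 1 count. The limit of 3 counts is 0.0124 TPM in replicate 1 and 0.0189 TPM in replicate 2. Rxrg was thus also at a trace level at most, too low at this depth for a level to be read.

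Within the families, Rxrb held 98.4% of the summed RXR TPM in replicate 1 and 96.9% in replicate 2, while Rxra held 1.56% and 3.03%. Rxrb exceeded Rxra 63.1-fold and 31.9-fold in the respective libraries. In deposited TPM Rara held 47.7% and 48.4% of the summed RAR TPM (48.0 ± 0.517%, SD, n = 2) and Rarg 52.3% and 50.5%. With deposited posterior means the Rara share was 12.5% in replicate 1 and 50% in replicate 2 (31.2 ± 26.5%, SD, n = 2). Summed RXR TPM was 10.25 and 10.55, against 1.28 and 0.93 for summed RAR TPM, which is 8.01-fold and 11.3-fold more RXR than RAR transcript. As a log2 ratio this was 3.25 ± 0.36 (SD, n = 2). Rarg in replicate 1 carried the wide interval given above, and with deposited posterior means the log2 ratio was 0.84 in replicate 1 and 3.12 in replicate 2.

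Among 48 nuclear receptor genes, Rxrb ranked 1 by TPM in replicate 1 and 2 in replicate 2, holding 19.0% and 17.3% of their summed TPM. The glucocorticoid receptor gene Nr3c1 was its neighbour in that order, at 9.43 and 12.23 TPM, and the order of the pair turned between the libraries. These ranks rest on all transcripts of each gene, retained-intron ones included. The coding Rxrb transcripts alone, at 7.23 and 8.48 TPM, lay below the summed Nr3c1 level in both libraries, which sets a part against a whole. Rarg ranked 12 and 13, Rara 13 and 15, and Rxra 20 and 17. Of the 48 genes, 9 were at 1 TPM or more in both libraries, against 40.8% of all protein-coding genes, whereas 17 had no count in either. Over all protein-coding genes 40.2% (8635 of 21461) had no count in either, and 0 of the 7 members did. Of the 13 genes listed as other RXR partners, 2 reached 1 TPM in both. These were the liver X receptor gene Nr1h2, at 6.6 and 5.12 TPM, and the thyroid hormone receptor gene Thra, at 4.75 and 5.41 TPM. Both partner genes lay above Rara and Rarg and below Rxrb in each library. The partner list had a median of 0.22 and 0.26 TPM, where the median of all protein-coding genes was 0.17 and 0.20 TPM. Among the 29 remaining receptors, 6 reached 1 TPM in both, including Nr2c2 (7.56 and 8.62 TPM) and the oestrogen receptor gene Esr1 (2.91 and 3.96 TPM). The list median of those 29 was 0 in both libraries.

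Ncor1 (ENSMUSG00000018501.13, chr11:62316426-62458541, minus strand), which encodes the scaffold of the corepressor complex, was the most abundant member. It stood at 53.42 TPM from 20199 counts in replicate 1 and 62.92 TPM from 17650 counts in replicate 2, with a mean of 58.17 ± 6.72 TPM (SD, n = 2). Replicate 2 was higher in deposited TPM and replicate 1 was slightly higher on rescaled TPM, at 280.2 and 275.5. Ncor1 ranked 505 and 534 among protein-coding genes, above 97.7% and 97.5% of them. Its TPM exceeded that of Rxrb 5.29-fold and 6.16-fold, and its log2 ratio to Rara was 6.79 ± 0.48 (SD, n = 2). These ratios rest on all 26 Ncor1 transcripts, most of which are far shorter than the full message.

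The 3 Ncor1 transcripts with 40 or more exons, Ncor1-204, Ncor1-205 and Ncor1-201, held 10.14 TPM in replicate 1 and 10.97 TPM in replicate 2. That was 19.0% and 17.4% of the gene's TPM but 59.5% and 57.5% of its counts. Set against Rxrb, full-length Ncor1 was at 1.00-fold and 1.07-fold of all Rxrb transcripts and at 1.402-fold and 1.294-fold of the coding Rxrb transcripts, and its log2 ratio to Rara was 4.33 ± 0.39 (SD, n = 2). The 14 transcripts under 1000 nt held 48.4% and 47.3% of the TPM but 8.81% and 8.49% of the counts. The one with the highest mean share, Ncor1-219, has 643 nt and a retained intron, and stood at 15.32 TPM from 1029 counts and 10.70 TPM from 514 counts, or 28.7% and 17.0% of the gene. The coding transcript Ncor1-212, of 15 exons, stood at 7.46 and 11.37 TPM, below Ncor1-219 in replicate 1 and above it in replicate 2. The deposited credibility intervals of Ncor1-219, 13.8 to 16.8 and 8.77 to 12.4 TPM, did not overlap between the libraries, and neither did those of Ncor1-212, 6.85 to 7.96 and 10.4 to 12.01 TPM.

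The 8 retained-intron transcripts of Ncor1 held 39.3% of the gene's TPM in replicate 1 and 36.0% in replicate 2. Over the 3876 genes given such a share, the median was 7.25% and 8.30%, and Ncor1 lay above 88.0% and 87.2% of them. In total RNA, unspliced nuclear RNA and true retained-intron transcripts cannot be told apart from these tables. Ncor1-211 and 1 transcript with no name in the annotation carried identical values and the same length, with 666.5 and 571 counts each, so these tables do not tell them apart. Ttc19 (1058 and 520 counts) and Pigl (205 and 126 counts) overlap Ncor1 on the opposite strand, far below its own counts.

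**Figure D2:**
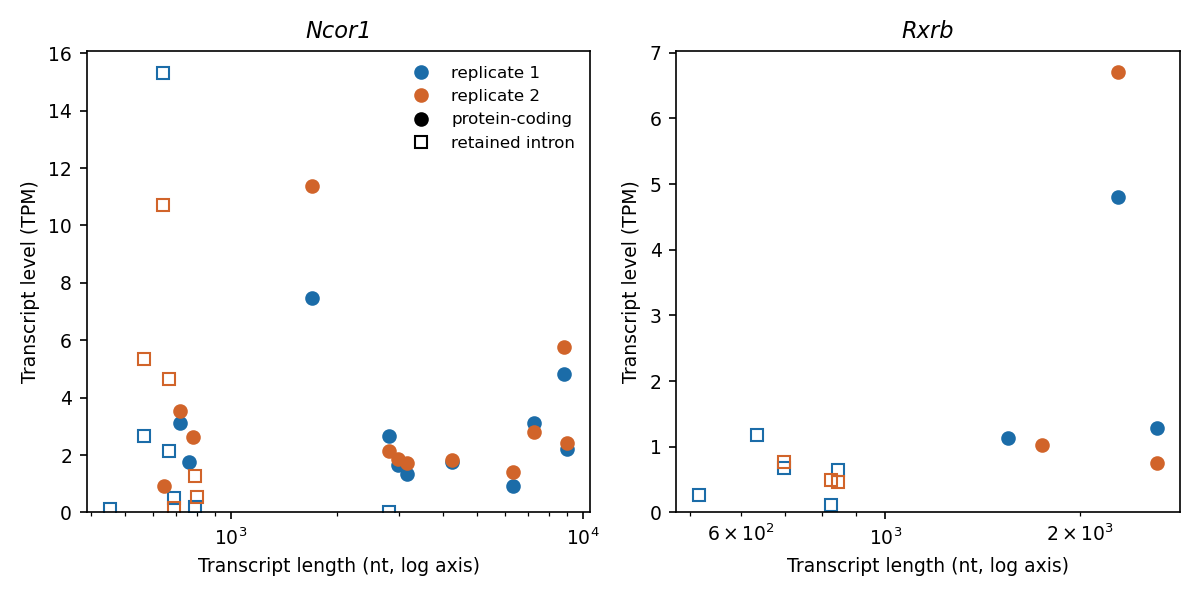
TPM of each transcript with reads of Ncor1 (left) and Rxrb (right) against its length in nt (log axis). Blue is replicate 1 and orange replicate 2, filled circles are protein-coding and open squares retained-intron transcripts. The highest Ncor1 point is the 643-nt Ncor1-219, whereas the highest Rxrb points in both libraries are those of Rxrb-202, the coding transcript with 4.81 and 6.70 TPM.

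Of the full-length Ncor1 TPM, 78.3% and 78.0% was placed on Ncor1-204 and Ncor1-205, which begin at an inner position. That position, base 62438515 for Ncor1-204, is also the first base of exon 2 of Ncor1-201 and an inner exon edge of 4 transcripts. It is set beside the outer start of Ncor1-201 because the letters before the inner position and that start differ. The 100 bases before each, chr11:62438516-62438615 and chr11:62457333-62457432 on the minus strand, are printed with the last AG of the inner one and every CpG of the outer one in capitals.
Ncor1 inner edge: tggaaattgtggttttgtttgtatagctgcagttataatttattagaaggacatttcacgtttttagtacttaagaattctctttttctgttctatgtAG
Ncor1 outer start: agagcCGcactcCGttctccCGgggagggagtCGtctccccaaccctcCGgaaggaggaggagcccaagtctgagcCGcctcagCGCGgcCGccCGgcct
The inner stretch held 29% G or C and ended in AG, the letters with which introns end. The position is an annotated exon edge, so the AG comes with the choice of position. Of the last 30 bases, 21 were C or T in the inner stretch and 17 in the outer one. The outer stretch held 72% G or C and 10 CpG. Ncor1-208 (2.65 and 2.15 TPM) and Ncor1-210 (0 and 0.92 TPM) begin further out than Ncor1-201, and the bases before them were not examined. Whether the reads given to Ncor1-204 came from an inner start or from the shared exon 2 was not tested.

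The receptor transcripts were fewer. Rxrb-202 held 47.6% and 65.6% of the Rxrb TPM and Rxrb-201 held 12.7% and 7.44%. Rxrb-207 stood at 1.14 TPM in replicate 1 and 0 in replicate 2, whereas Rxrb-203 stood at 0 and 1.02 TPM, so these similar coding transcripts were each given reads in a single library. The 4 coding Rxrb transcripts summed to 7.23 and 8.48 TPM. The 6 retained-intron transcripts held 28.4% of the Rxrb TPM in replicate 1 and 16.9% in replicate 2. That lay above 81.3% and 68.2% of the 3876 genes given such a share. Of these transcripts, Rxrb-209 reached 1.18 TPM in replicate 1 with 0 in replicate 2.

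For Rara, 2 of 7 transcripts had reads. Rara-207 was similar in the libraries, at 0.33 TPM from 142 counts and 0.40 TPM from 130.2 counts, with overlapping credibility intervals of 0.167 to 0.403 and 0.221 to 0.434 TPM. Rara-202 had 124 counts and 0.28 TPM in replicate 1 but 16.8 counts and 0.05 TPM in replicate 2, and its intervals of 0.187 to 0.376 and 0.0158 to 0.110 TPM did not overlap. The fewer Rara counts of replicate 2 thus lay mostly on Rara-202. All reads of Rarg were placed on Rarg-202, annotated from the inner start, and all reads of Rxra on Rxra-201. Neither the outer Rarg-201 nor any of the other 5 Rxra transcripts had counts.

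**Figure D3:**
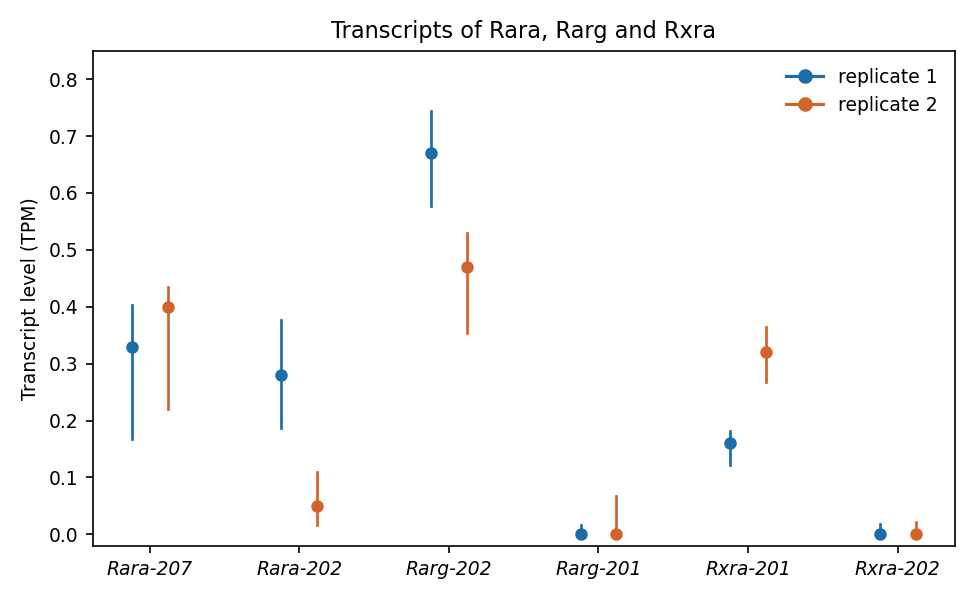
TPM of transcripts of Rara, Rarg and Rxra in replicate 1 (blue) and replicate 2 (orange). Points are deposited TPM and lines the deposited credibility interval. Rara-207 overlaps between the libraries, Rara-202 is at 0.28 and 0.05 TPM, Rarg-202 at 0.67 and 0.47 TPM, and Rxra-201 is higher in replicate 2.

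The libraries were next compared on counts, scaled with TMM factors (trimmed mean of M values), as the log2 ratio of replicate 2 to replicate 1 of CPM, counts scaled to the library total. With 1 library on each side no test was possible. Rara had a ratio of -0.73 (counting interval -1.04 to -0.44) and Rarg of -0.78 (-1.10 to -0.47), both lower in replicate 2. Rxra had a ratio of 0.76 (0.42 to 1.14), higher in replicate 2. Rxrb was at -0.09 (-0.17 to -0.00) and Ncor1 at -0.08 (-0.11 to -0.05), and these small ratios change sign with the scale, to 0.02 and 0.24 on deposited TPM.

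Beyond counting error, genes of low count varied widely between these libraries. Among 1181 protein-coding genes with a mean of 100 to 300 counts, 49.3% had a ratio past 0.5 in size, and 3 of the 3 members in that range did. The median size of the ratio there was 0.49, so the ratios of Rara, Rarg and Rxra lay above the median of such genes but within the 5th to 95th percentile range of -1.36 to 1.32. Of the 8764 protein-coding genes at 1 TPM or more in both libraries, 1.02% had a ratio past 1 in size, and 0 of the 2 members there did, with a median size of 0.19. Base composition was taken from the transcript of each gene with the highest mean TPM share. For the 5 members it ran from 50.4% to 59.0% G or C. The lowest value is that of Ncor1-219, which held 5.09% of the Ncor1 counts in replicate 1 and 2.91% in replicate 2. That value need not describe Ncor1 as a whole. After the trend on base composition was removed, the ratios were -0.55 for Rara, -0.60 for Rarg and 0.92 for Rxra.

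**Figure D4:**
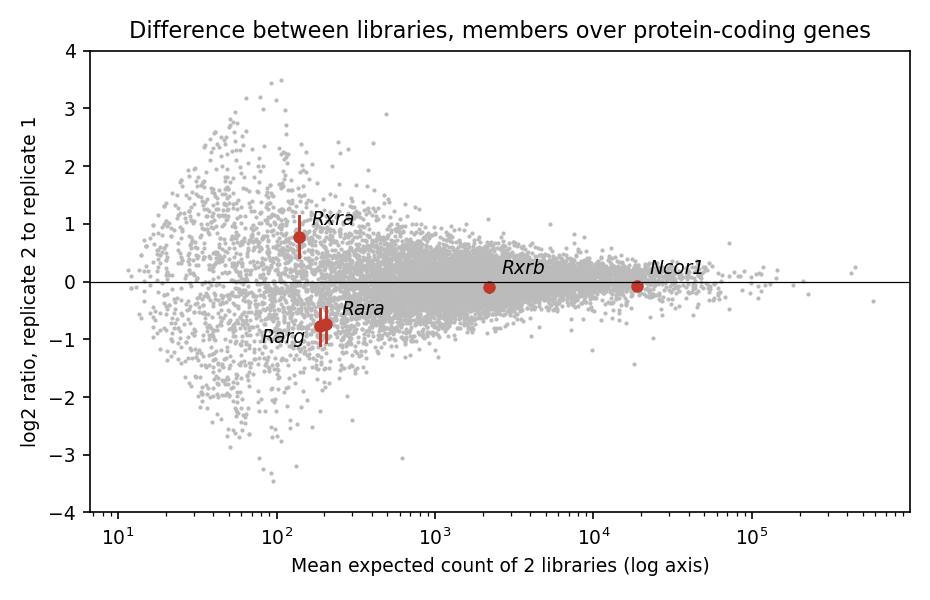
Log2 ratio of replicate 2 to replicate 1 against the mean expected count (log axis), for 11085 protein-coding genes (grey, 3 of them beyond the axis) and 5 members (red, with counting intervals as lines). Rxrb and Ncor1 lie near 0, Rara and Rarg near -0.75 and Rxra at 0.76, within the wide scatter of genes of like count.

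Most other corepressor genes were present at 1 TPM or more in both libraries, a level that 40.8% of all protein-coding genes reached. Of 13 corepressor genes, Ncor1 among them, 12 were at 1 TPM or more in both libraries, with a list median of 13.95 and 15.01 TPM. Ncor1 was the highest in both. Hdac2, a deacetylase of the SIN3 and NuRD complexes, followed at 35.56 and 42.89 TPM, and the scaffold Sin3a stood at 29.51 and 22.30 TPM. Of the subunits that bind NCoR1 directly, Hdac3 stood at 15.07 and 16.41 TPM, Tbl1xr1 at 13.95 and 15.74 TPM, Gps2 at 11.43 and 11.09 TPM and Tbl1x at 6.51 and 8.93 TPM. Each of these lay below the summed Ncor1 level in both libraries. Hdac3, Tbl1xr1 and Gps2 lay above the full-length Ncor1 level of 10.14 and 10.97 TPM in both, Gps2 only narrowly in replicate 2. That comparison sets all transcripts of those genes against a part of those of Ncor1, so no order can be read from it.

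All 11 matched coactivator genes also reached 1 TPM in both libraries, against 40.8% of all protein-coding genes. The coactivator list median was 4.33 and 6.11 TPM. Ncoa4 was the highest at 43.50 and 49.17 TPM, a gene whose product is better known as the receptor for ferritin in its autophagy. The p160 coactivators, which bind liganded receptors, ran from Ncoa1 at 1.32 and 1.33 TPM through Ncoa3 at 4.12 and 3.8 TPM to Ncoa2 at 11.19 and 12.21 TPM. The Mediator subunit gene Med1 stood at 8.42 and 9.69 TPM. On the log2(TPM + 1) scale the corepressor median lay above the coactivator median by 1.49 and 1.17 (1.33 ± 0.22, SD, n = 2), and by 0.65 with means in place of medians. The lists differ in how they were drawn up, so this difference describes these genes alone.

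Genes that supply the ligand varied widely in level. Of 15 genes of retinoid uptake, storage and synthesis, 4 reached 1 TPM in both libraries, against 40.8% of all protein-coding genes. In neither library did 7 of the 15 have a count, a share close to the 40.2% of all protein-coding genes. The dehydrogenases Aldh1a2 and Aldh1a3, which make retinoic acid, the uptake receptor gene Stra6 and the storage enzyme gene Lrat were among the 7. Aldh1a1, of the same enzyme family, had 7 and 89 counts, or 0.03 and 0.43 TPM. Those at 1 TPM or more were Adh5 (31.69 and 30.63 TPM), Dgat1 (4.64 and 7.69 TPM), Rdh11 (4.11 and 4.99 TPM) and Rdh12 (1.00 and 2.07 TPM), of which Adh5 and Dgat1 have main roles outside retinoid metabolism. Of 4 genes of retinoic acid removal, Dhrs3, which reduces retinal to retinol, stood at 3.43 and 7.63 TPM. The retinoic acid hydroxylase Cyp26a1 had 0 and 5 counts, and Cyp26b1 and Cyp26c1 had 0 in both. The binding protein genes Crabp1 and Crabp2, which carry retinoic acid in the cytoplasm, had 0 counts in both, whereas Fabp5, which binds fatty acids and retinoic acid, stood at 56.70 and 59.88 TPM.

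Of 11 known retinoic acid target genes, 2 reached 1 TPM in both libraries, Cebpe at 12.56 and 13.51 TPM and Dhrs3. Over all protein-coding genes 40.8% reached that level. Of the 11 targets, 5 had 0 counts in both, again close to the share of all protein-coding genes with 0 counts. Cebpe encodes a factor of late granulocyte maturation and the list shares Dhrs3, Cyp26a1 and Cyp26b1 with the removal list. Rarb, itself a target by the textbook account, was likewise near 0 as given above. Where 40.8% of all protein-coding genes reached 1 TPM in both libraries, all 8 genes whose human counterparts fuse to RARA in leukaemia did. Their levels ran from Zbtb16 (1.87 and 1.51 TPM) and Pml (1.99 and 2.19 TPM) to Npm1 (659 and 892 TPM). Each of the 8 lay above Rara in both libraries.

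**Figure D5:**
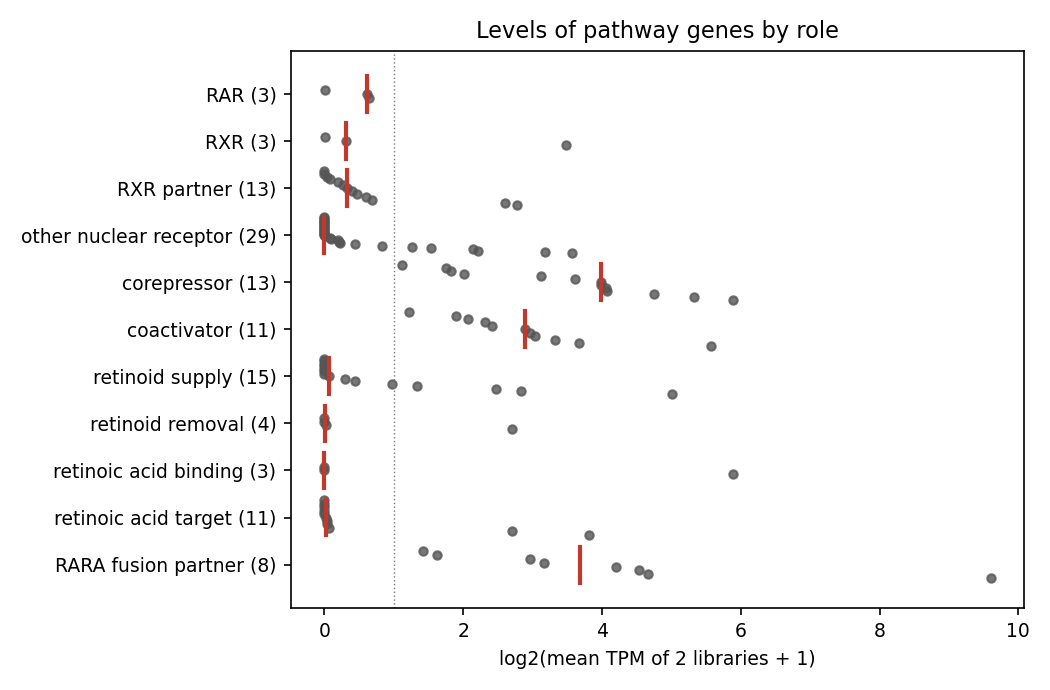
Level of every matched gene of 11 lists as log2(mean TPM of the 2 libraries + 1), each dot a gene and each red bar the list median. The number of genes is in brackets and the dotted line marks 1 TPM. Corepressor, coactivator and fusion partner genes lie above 1 TPM, whereas the medians of the ligand supply, removal, binding, target and other receptor lists lie near 0.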

How the data were processed

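Total RNA-seq of 2 libraries of granulocyte-monocyte progenitors was analysed. Deposited for each library were expected counts of genes and transcripts, whose shared reads an estimator had split, with TPM and FPKM scaled over all features. The deposited credibility bounds of TPM were treated as a signal with no fixed total, and each transcript's percent of its gene was recomputed from TPM, since the deposited percent is rounded. Per the deposited metadata, the assembly was mm10 and the annotation GENCODE M4; the aligner, quantifier and counting strand were not given in the sources used here.

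Names, classes and coordinates came from GENCODE M21 by identifier without version, matching 42462 of 43346 genes and 59 of 60 member transcripts. A further 26345 entries for tRNAs and spike-ins were left out of library sizes for ratios but stay in deposited TPM. Expected counts were rounded to whole numbers and scaled in edgeR 4.0.16 under R 4.3.3, with a prior count of 2 and filterByExpr. This step was tested on simulated data. DESeq2 1.42.0 size factors were an alternative. The GC trend was a lowess fit (span 0.3, statsmodels 0.14.6), and the Poisson intervals came from scipy 1.17.1.

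The members, the 11 gene lists and the markers were chosen with earlier results of these data known. All members are named. Open to naming were also list genes at 1 TPM or more in both libraries, the highest and lowest of each list, and transcripts at 10% or more of their gene. Not every gene that met these rules is named, so a gene left out need not be below 1 TPM. Other genes and transcripts named were chosen after their values were seen. A few listed genes are not reported here, and Prmt1 had no matching identifier. With 1 group of 2 libraries, no test was run.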

Additional observations from a re-analysis of the deposited data

How the results depend on the processing

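The libraries taken singly gave 2 members at 1 TPM in each case, a Rara share of RAR of 47.7 to 48.4%, an Rxra share of RXR of 1.56 to 3.03%, log2 ratios of 3.001 to 3.50 for RXR to RAR and 6.45 to 7.13 for Ncor1 to Rara, and list differences of 1.17 to 1.49 and 0.29 to 0.33. With rescaled TPM 4 members reached 1, and with FPKM also 4. Posterior mean TPM gave a Rara share of 31.2% (12.5% in replicate 1) and a log2 ratio of RXR to RAR of 1.98; these means take in the short transcript Rarg-206. Counts per kb of the longest transcript, chosen after seeing the data, gave 48.8% for the Rara share, 2.85 for RXR to RAR and 5.16 for Ncor1 to Rara, and full-length Ncor1 alone, also chosen then, gave 4.33. The corepressor excess over coactivators was 0.65 with means. The excess of RXR partners over other receptors on the log2 scale was 0.31; it became 1.10 with rescaled TPM, 0.73 with FPKM, 0.26 with posterior means, 1.76 with a pseudocount of 0.1 and 0.10 with means, and reversed to -0.75 without genes below 0.1 TPM, so no order of these lists can be read. The ratio between libraries changed sign for Rxrb, to 0.018 on deposited TPM and 0.11 with the GC trend removed, and for Ncor1, to 0.24 on deposited TPM. The causes were not tested, beyond the transcripts and genes left out by construction. Of the other recomputed levels and transcript shares of members, 34 moved by less than the spread between the libraries and 16 by more. The 34 include every value from 1 library alone, which with 2 libraries cannot lie further from the mean than the SD. The split of 34 and 16 therefore does not measure how stable the values are. Of the ratios between libraries, 24 moved by less than 0.5 of the width of the counting interval and 3 by more.

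Depth limits Rarb and Rxrg to statements of a trace level at most, and leaves Rara, Rarg and Rxra on 107 to 266 counts a library. The TPM of Ncor1 and Rxrb depends on how reads were split among short transcripts. No paired analysis was possible because the series holds 1 group.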

Other observations

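Some pathway genes outside the members had very different counts in the libraries; those given here were chosen after their values were seen. Ppard, a partner of RXR, had 244 counts in replicate 1 and 23 in replicate 2. Nr1d1, a repressor of the circadian clock, had 0 and 83 counts. Of genes that make retinoic acid or answer it, Aldh1a1 had 7 and 89 counts and Cd38 had 21 and 0. Each is below 1 TPM in both libraries.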
